A study of Mus musculus with 4 samples.

Results

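*Il10*-expressing hepatic Tregs are described here, that is, CD4+ T cells of the liver with RNA of the regulatory T cell genes *Foxp3* or *Ikzf2* and of the cytokine gene *Il10*. A cell of the single-cell tables was taken as a member when it had more than 200 genes and under 5% mitochondrial counts, at least 1 molecule of *Il10*, at least 1 of *Foxp3* or *Ikzf2* and at least 1 of *Cd3d*, *Cd3e* or *Cd3g*, and none of *Il1rl1*, *Siglech* or *Lyz2*. The rule found 1200 cells of 28018 in all, 40 of 10556 in the library labelled WT and 1160 of 17462 in the library labelled dKO. Cells that passed the same gate with 0 molecules of *Il10* were the comparison, 1199 and 5128 cells. *Il10* chose the members, so its level in them is a description, and since a cell's RNA is only sampled, a cell with 0 molecules of *Il10* is not shown to lack it.

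The study examined hepatic CD4+ T cells of mice with diet-induced steatohepatitis. All mice were given a choline-deficient diet with 60 kcal% fat and 0.1% methionine. The dKO mice carried floxed *Nr4a1* and *Nr4a2* deleted by Cre under the *Cd4* promoter, which acts in all T cells that pass through a CD4+ stage and so is not limited to Tregs, and the WT mice were their controls. CD4+ T cells were sorted by flow cytometry, pooled from 2 mice per genotype, and read by a 5′ droplet assay in which a molecular barcode (UMI) stands for 1 RNA molecule, together with the T cell receptor chains. Cells of the pooled mice are not told apart in the files. With 1 library and no replicate for either genotype, differences are given by size and without a test. Ranges in parentheses are 95% intervals, exact Poisson for levels, exact conditional binomial for ratios and Clopper-Pearson for shares of cells. They cover counting error only, not differences between mice. Those of levels and ratios count each UMI as independent, so the spread between cells is also left out.

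Tregs restrain other immune cells and are held in this state by the transcription factor Foxp3, in many cells together with Helios, the product of *Ikzf2*. IL-10 is a secreted cytokine that acts on macrophages, dendritic cells and T cells and limits their inflammatory output, and Tregs of barrier and inflamed tissues are among its main T cell sources. Its transcription in T cells is known to be promoted by c-Maf and Blimp-1 (*Prdm1*), and IL-10-producing Tregs are usually described as activated effector Tregs with inhibitory receptors and little of the lymph node homing program of resting cells.

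The filtered libraries hold 23437516 and 37794986 UMIs, and no cell has fewer than 500 UMIs. *Nr4a1* (chr15:101254269-101274795, GRCm38) and *Nr4a2* (chr2:57106830-57124003), the deleted genes, were counted first in the members. *Nr4a1* had 872 CPM (UMIs of the gene per 1000000 UMIs of the cell group) in the *Il10*+ cells of the library labelled WT and 1865 CPM in those of the library labelled dKO. *Nr4a2* had 195 CPM and 483 CPM. Both are higher where the label says they were deleted, and in the *Il10*=0 cells the order is the same (780 and 1937 CPM for *Nr4a1*, 211 and 461 CPM for *Nr4a2*). The tables count a UMI to its gene and not to an exon, so they cannot show whether the floxed exons are present in these transcripts. Every direction from WT to dKO below rests on the labels. The tables share 245 cell barcodes, of which 3 and 19 are members. *Il10*+ cells were deeper than *Il10*=0 cells, with a median of 2403.5 against 2096 UMIs in the library labelled WT and 1585 against 1377.5 in the library labelled dKO.

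Markers that the rule did not use were read beside the label. *Ctla4*, *Tigit*, *Tnfrsf18* and *Tnfrsf4*, receptors typical of Tregs, were read at 1443, 308, 526 and 864 CPM in the 40 *Il10*+ cells of the library labelled WT. In the 1160 cells of the library labelled dKO they had 2703, 1096, 1087 and 2029 CPM. These genes were picked from longer lists, and their levels in T cells outside the gate were not taken. The levels thus describe the members and do not test the label. Other identity genes, *Il2ra* among them, are taken up below. Of 2 CD8 T cell markers, *Cd8a* was at 0 in the *Il10*+ cells of both libraries and *Cd8b1* was read, at 7.52 CPM against 7.10 CPM in *Il10*=0 cells of the library labelled WT and 16.2 against 18.1 CPM for both markers in the library labelled dKO. Of 10 macrophage markers, 8 were at 0 in the *Il10*+ cells of the library labelled WT and 2 in those of the library labelled dKO, and their summed level was 45.1 CPM against 59.2 CPM in *Il10*=0 cells and 90.7 against 80.4 CPM in the same order. Of 5 neutrophil markers 4 and 2 were at 0, with 7.52 against 2.47 CPM and 23.6 against 6.95 CPM. Of 8 markers of plasmacytoid dendritic cells 5 and 1 were at 0, with 128 against 173 CPM and 399 against 315 CPM, and this list holds *Ccr9* and *Bst2*, which T cells also express. Cells marked as doublets made up 12.5% of *Il10*+ and 12.6% of *Il10*=0 cells in the library labelled WT, and 16.3% and 16.0% in the library labelled dKO. The label Treg rests on *Ikzf2* alone in 18 of 40 and 563 of 1160 members, and *Foxp3* was read in 22 (55.0%, 38.5 to 70.7) and 597 (51.5%, 48.5 to 54.4). *Foxp3* was read in 28.1% (25.6 to 30.7) and 44.2% (42.8 to 45.5) of the *Il10*=0 cells. The effector cytokine gene *Ifng* had 405 CPM (28 UMIs) in members of the library labelled WT with *Ikzf2* alone. It had 54.1 CPM in those with both genes and 74.2 CPM in those with *Foxp3* alone. In the library labelled dKO it had 68.8, 36.5 and 27.2 CPM in the same order.

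*Il10* (ENSMUSG00000016529, chr1:131019845-131024974, plus strand) was read in 3.23% (2.32 to 4.37) of 1239 gated Tregs of the library labelled WT and in 18.4% (17.5 to 19.4) of 6288 gated Tregs of the library labelled dKO, a ratio of 5.71. The gated Tregs of the library labelled dKO were the shallower ones. With each cell thinned to 1000 UMIs, and 149 and 1364 shallower cells left out, the shares were 1.65% (0.982 to 2.60) and 13.4% (12.5 to 14.4), a ratio of 8.13. Within the library labelled dKO the share was 11.1% in the shallowest and 28.4% in the deepest of 6 depth classes, with each class above the one before it. The same classes of the library labelled WT had between 2.01% and 5.76%, all below the lowest class of the other library.

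The order of the libraries was the same in each way of calling a Treg. Cells with both *Foxp3* and *Ikzf2* were *Il10*+ in 7.07% (3.92 to 11.6) and 20.9% (19.1 to 22.6) of cases, and cells with *Foxp3* alone in 4.97% (2.17 to 9.56) and 20.9% (18.0 to 24.0). Cells with *Ikzf2* alone had the lowest share in each library, 2.05% (1.22 to 3.21) and 16.4% (15.2 to 17.7). For the library labelled WT the intervals of the cells with both genes and of the cells with *Ikzf2* alone do not overlap, whereas *Foxp3* alone overlaps both. For the library labelled dKO only *Ikzf2* alone lies apart.

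Free RNA in droplets gives UMIs to cells that do not express a gene, so the share was also taken in other cells. T cells without *Foxp3* and *Ikzf2* were *Il10*+ in 0.665% (0.474 to 0.908) of 5862 and 6.79% (6.07 to 7.56) of 4521 cells, with median depths of 1631.5 and 1288 UMIs. These can hold Tregs whose *Foxp3* was missed and other IL-10-producing T cells. Naive-like T cells, which have *Ccr7* with *Lef1* or *Tcf7* and should lack *Il10*, had 0.511% (0.166 to 1.19) of 978 and 1.18% (0.385 to 2.74) of 423 cells, at 2313 and 1671 UMIs. *Lyz2*+ cells without *Cd3* had 0.606% of 165 and 1.20% of 251 cells. Read against the naive-like cells, the share among gated Tregs is higher in both libraries, with intervals that do not overlap. At 2000 UMIs per cell they do overlap in the library labelled WT, 2.14% (1.18 to 3.57) against 0.664% (0.181 to 1.69), and at 1000 UMIs they do not, 1.65% against 0 of 933 cells (up to 0.395).

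**Figure D1:**
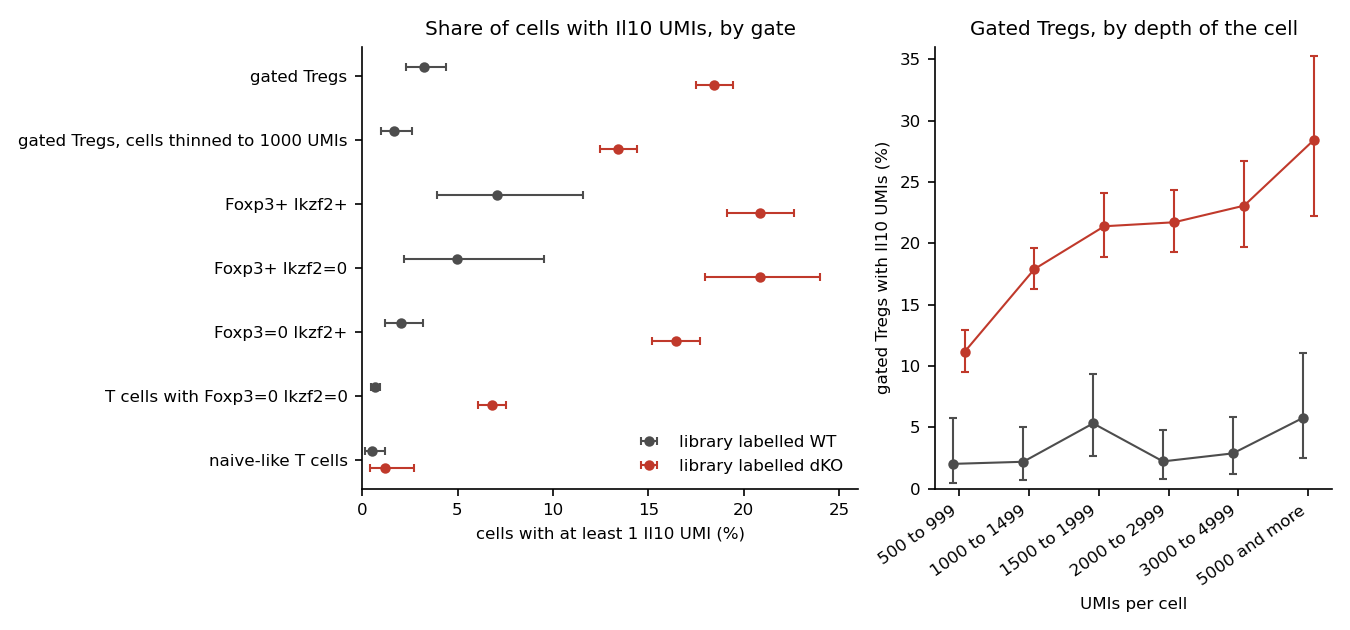
Percent of cells with at least 1 *Il10* UMI by gate (left, horizontal axis) and, for gated Tregs, by UMIs per cell (right, vertical axis) in the libraries labelled WT (grey) and dKO (red), with points as shares and bars as exact 95% intervals for counting error. The share is higher in the library labelled dKO in every class of gated Tregs and at every depth, 18.4% against 3.23% over the whole gate, while naive-like T cells stand at 1.18% and 0.511%.

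Of all *Il10* UMIs, the members hold 58 of 183 (31.7%) in the library labelled WT and 1876 of 3000 (62.5%) in the library labelled dKO. Most members had a single *Il10* UMI, 32 of 40 (80.0%) and 763 of 1160 (65.8%). A level of 3 or more was seen in 3 and 156 cells, and the highest counts in a cell were 7 and 14. Among the *Il10*+ cells that the rule does not take, 43 and 358 were T cells without *Foxp3* and *Ikzf2*, 3 and 56 had no *Cd3*, and 24 and 306 passed the Treg gate but had *Il1rl1*, *Siglech* or *Lyz2*. *Il1rl1* encodes ST2, the receptor for IL-33 that marks tissue-repair Tregs, and 16 and 118 of those cells had it. Tregs with *Il1rl1*, and without *Siglech* and *Lyz2*, were *Il10*+ in 6.98% (12 of 172, 3.66 to 11.9) and 18.9% (97 of 513, 15.6 to 22.6) of cases, and in both libraries the interval overlaps that of the Tregs without *Il1rl1*.

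*Il10*+ cells were next compared with *Il10*=0 cells within each library, among genes with a mean of at least 50 CPM over the compared groups, and a gene was counted as higher or lower when its levels differed by 1.5-fold or more (0.58 on the log2 scale). In the library labelled dKO the groups were close over the whole transcriptome: of 3401 genes, 23 were higher (0.676%) and 18 lower (0.529%) in *Il10*+ cells. These counts rest on the fold alone, since there is no replicate. The library labelled WT had 382 of 3453 genes higher (11.1%) and 283 lower (8.2%), in a ratio with 40 cells and 133048 UMIs on 1 side. With scaling by trimmed means (TMM), which moved all ratios in the library labelled WT by -0.13 on the log2 scale, its counts became 244 higher and 426 lower. Values of this library are given beside the others with their intervals, and named genes were read against these background shares.

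Genes of Treg identity were close to those of *Il10*=0 cells in the library labelled dKO and higher in the library labelled WT. Of the identity list, 1 of 12 genes tested was higher and none lower in the library labelled dKO, with a median log2 ratio of 0.12 against 0.01 over all genes, and 7 of 9 were higher in the library labelled WT, with a median of 0.89 against 0.05. *Foxp3* was read in 55.0% of *Il10*+ and 28.1% of *Il10*=0 cells of the latter, and among *Foxp3*+ cells alone 3 of its 7 genes stayed past the fold (*Foxp3* 0.09, *Ctla4* 0.38, *Il2ra* 0.44 and *Tnfrsf18* 0.52 on the log2 scale did not). *Foxp3* (chrX:7573644-7595245) had 418 CPM in *Il10*+ and 398 CPM in *Il10*=0 cells of the library labelled dKO, a log2 ratio of 0.07 (-0.03 to 0.17). It had 316 and 170 CPM in the library labelled WT, a log2 ratio of 0.89 (0.40 to 1.34). *Ikzf2* (chr1:69531214-69687245, minus strand) was slightly lower in *Il10*+ cells of both, 1115 against 1281 CPM in the library labelled dKO and 661 against 760 CPM in the library labelled WT, a log2 ratio of -0.20 in each. Both genes are part of the gate and are on the identity list, so its counts and medians rest in part on them. The median of 0.89 in the library labelled WT is also the value of *Foxp3*, 1 of the 7 higher genes. *Izumo1r*, which encodes folate receptor 4, a Treg surface protein, was the 1 identity gene past the fold in the library labelled dKO, 446 against 293 CPM, and had 316 against 159 CPM in the library labelled WT. Among cells of the 50 clones with both *Il10*+ and *Il10*=0 cells in the library labelled dKO, its log2 ratio fell below the fold. It was 0.29 with and 0.21 without weights for clone makeup. *Il2ra*, the high-affinity IL-2 receptor chain, differed in direction, 119 against 138 CPM in the library labelled dKO and 248 against 115 CPM in the library labelled WT.

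Inhibitory receptors had a positive median in both libraries. The median log2 ratio was 0.51 in the library labelled dKO, where 2 of 6 tested genes were higher, and 0.85 in the library labelled WT, where 3 of 5 were. *Lag3*, a receptor for MHC class II, had 220 against 123 CPM in the library labelled dKO (log2 ratio 0.85, 0.69 to 1.0) and 67.6 against 14.5 CPM in the library labelled WT (2.22, 1.01 to 3.27). *Klrg1* (chr6:122270596-122282882), an inhibitory receptor of effector and tissue Tregs that binds cadherins, had 610 against 368 CPM (0.73, 0.64 to 0.82) and 158 against 72.2 CPM (1.13, 0.41 to 1.77). *Tigit* (chr16:43648867-43664146, minus strand), which competes for the ligand of the costimulatory receptor CD226, had 1096 against 833 CPM (0.40, 0.33 to 0.46) and 308 against 171 CPM (0.85, 0.35 to 1.31). *Ctla4* (chr1:60887000-60915832), which removes CD80 and CD86 from antigen-presenting cells, had 2703 against 1949 CPM (0.47, 0.43 to 0.51) and 1443 against 729 CPM (0.99, 0.77 to 1.20). All 4 genes were higher in *Il10*+ cells of both libraries, though *Tigit* and *Ctla4* stay below 1.5-fold in the library labelled dKO. *Pdcd1*, which encodes PD-1, had 207 against 224 CPM in the library labelled dKO and 225 against 166 CPM in the library labelled WT.

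Among *Foxp3*+ cells alone *Klrg1* had 0.42 in the library labelled WT, below the fold. In the library labelled dKO these ratios were smaller in the cells of the 50 clones that held both *Il10*+ and *Il10*=0 cells, with or without weighting. When the *Il10*=0 cells of the library labelled dKO were weighted to the clone makeup of the *Il10*+ cells (154 and 323 cells of 50 clones), the log2 ratio was 0.08 for *Klrg1* and 0.04 for *Tigit*, against 0.28 for *Ctla4* and 0.29 for *Lag3*. In the same cells without the weights, an alternative added after the data were seen, the log2 ratios were 0.19, 0.03, 0.32 and 0.28. The ratios were thus already smaller in these cells before weighting. These values carry no interval, and the cause was not tested. The largest of the 50 clones gave 56 of the 154 *Il10*+ and 105 of the 323 *Il10*=0 cells.

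Of the suppressive mediators, 1 of 11 tested genes was higher in the library labelled dKO and 1 of 9 in the library labelled WT, with medians of -0.03 and 0.41. *Gzmb*, which encodes the protease granzyme B, was that gene, 383 against 239 CPM (log2 ratio 0.68, 0.57 to 0.79) in the library labelled dKO and 271 against 126 CPM (1.10, 0.57 to 1.59) in the library labelled WT. Within clones of the former its log2 ratio was 0.89. In the library labelled WT 2 of the 40 cells held 61.1% of its 36 UMIs, and without the 3 cells whose barcode is in both tables the ratio was 0.49. *Fgl2* (chr5:21372642-21378374), a secreted ligand of the receptor FcγRIIB, had 404 against 314 CPM in the library labelled dKO (0.36, 0.26 to 0.47) and 90.2 against 93.2 CPM in the library labelled WT (-0.05, -1.02 to 0.78). Within clones the *Fgl2* ratio was -0.06. *Entpd1*, the ectonucleotidase CD39, had 176 against 122 CPM and 52.6 against 43.5 CPM. *Tgfb1*, the other main suppressive cytokine of Tregs, had 223 against 228 CPM and 188 against 191 CPM, but a log2 ratio of 0.50 within clones of the library labelled dKO and of -1.39 among *Foxp3*+ cells of the library labelled WT.

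Of the transcription factors linked to *Il10*, 1 of 12 tested was higher and 1 lower in the library labelled dKO. *Maf* (chr8:115682942-115707794, minus strand) had 655 against 461 CPM (log2 ratio 0.51, 0.42 to 0.59), and 451 against 248 CPM (0.86, 0.46 to 1.24) in the library labelled WT, with 0.29 within clones. *Prdm1* had 108 against 76.7 CPM (0.49, 0.28 to 0.70) in the library labelled dKO, and 22.5 against 35.2 CPM in the library labelled WT, where the interval spans 0 (-2.94 to 0.94). *Ikzf3*, which encodes the Ikaros family member Aiolos, was the gene past the fold, 372 against 247 CPM (0.59, 0.48 to 0.70), and had 233 against 280 CPM in the library labelled WT. *Rora*, a nuclear receptor of type 2 and tissue-resident lymphocytes, was the lower gene, 256 against 388 CPM (-0.60, -0.73 to -0.48), and had 601 against 565 CPM in the library labelled WT. *Batf*, an AP-1 factor of effector Tregs, was level in the library labelled dKO, 216 against 212 CPM, and had 165 against 122 CPM in the library labelled WT. Levels of *Nr4a1*, *Nr4a2* and *Nr4a3*, immediate targets of T cell receptor signalling, differed little with *Il10* in the library labelled dKO, with log2 ratios of -0.05, 0.07 and -0.05. None of 10 early receptor-response genes passed the fold there.

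The highest ratios in the library labelled dKO were those of chemokines. *Ccl4* (chr11:83662584-83664683) and *Ccl3* (chr11:83647844-83649355), neighbours that encode inflammatory chemokines, had 1297 against 421 CPM (log2 ratio 1.62, 1.55 to 1.69) and 215 against 49.4 CPM (2.12, 1.94 to 2.31). Both were lower in *Il10*+ cells of the library labelled WT, 45.1 against 155 CPM (-1.78, -3.24 to -0.65) and 7.52 against 38.6 CPM, from 6 and 1 UMIs. *Ccl4* was the 1 gene of 139 list genes tested in both libraries that passed the fold in opposite directions with both intervals clear of 0. The *Ccl4* signal was uneven: it was read in 24.0% of *Il10*+ and 14.0% of *Il10*=0 cells of the library labelled dKO, 58 of the 1160 *Il10*+ cells held 80.8% of its 3131 UMIs, and 1 cell held 395. The library labelled WT had it in 3 of 40 *Il10*+ cells (7.5%, 1.57 to 20.4) and 80 of 1199 *Il10*=0 cells (6.67%, 5.33 to 8.24), and 60 of the latter held 96.0% of their 503 UMIs, so the share of cells with *Ccl4* was not lower. Within clones of the library labelled dKO the log2 ratio of *Ccl4* was -0.18 and that of *Ccl3* 0.91. *Xcl1*, which attracts cross-presenting dendritic cells, was lower in *Il10*+ cells of both libraries, 17.0 against 63.2 CPM and 135 against 287 CPM.

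Of 14 chemokine receptors and other homing genes tested in the library labelled dKO, 3 were higher and 1 lower. Among the higher ones, *Ccr3*, an eotaxin receptor, had 87.4 against 46.4 CPM and *Ccr9*, which guides cells to the gut, had 72.5 against 42.6 CPM, and both were at 0 in the *Il10*+ cells of the library labelled WT. Within clones their log2 ratios were 0.11 and 0.10. *Gpr183*, an oxysterol receptor of lymphoid migration, was the lower one, with a log2 ratio of -0.66 (0.42 in the library labelled WT). *Cxcr6*, a receptor of liver-resident T cells, had 382 against 311 CPM and 331 against 314 CPM.

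Cytotoxic genes were higher in 3 of 5 cases in the library labelled dKO (median log2 ratio 0.68), and in the library labelled WT 2 of 8 were higher and 3 lower (median -0.24). *Nkg7*, a granule membrane protein, had 1177 against 703 CPM (0.74, 0.68 to 0.81) in the library labelled dKO and 443 against 437 CPM in the library labelled WT. *Gzmk*, granzyme K, had 129 against 69.0 CPM (0.90, 0.70 to 1.10) and 67.6 against 41.7 CPM (0.70, -0.46 to 1.67). Within clones the *Gzmk* ratio was -0.10 and that of *Nkg7* 0.40.

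Among genes of resting and lymph node homing T cells, 2 of 7 tested were lower and none higher in the library labelled dKO (median log2 ratio -0.46), and 2 of 8 were lower and none higher in the library labelled WT (median -0.53). *Tcf7* (chr11:52252371-52283014), which encodes the stem-like and naive T cell factor TCF-1, had 31.9 against 72.4 CPM (-1.18, -1.54 to -0.84) in the library labelled dKO and 173 against 210 CPM (-0.28, -0.95 to 0.32) in the library labelled WT. *Ccr7*, the lymph node homing receptor, had 32.3 against 72.3 CPM (-1.16, -1.52 to -0.82) and 105 against 158 CPM. *Il7r*, the IL-7 receptor chain, had 199 against 274 CPM (-0.46) and 225 against 437 CPM (-0.95, -1.53 to -0.43). Among *Foxp3*+ cells alone *Il7r* had -0.27 in the library labelled WT. Within the 50 clones *Ccr7* had a log2 ratio of -2.03, whereas *Tcf7* had 0.33 (-0.16 without the weights), and without cells marked as doublets *Tcf7* had -2.12 in the library labelled dKO. In the library labelled WT *Tcf7* had a log2 ratio of -0.28, which was -1.13 without doublets, -0.84 by the mean of each cell's CPM and -0.79 in *Foxp3*+ cells.

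Survival genes and cytokine receptors showed no common direction. Of the survival genes, 1 of 9 was lower in the library labelled dKO, and 2 of 10 were higher and 1 lower in the library labelled WT (median log2 ratio 0.19). *Bcl2*, an inhibitor of apoptosis, had 40.6 against 64.5 CPM (-0.67) and 75.2 against 180 CPM (-1.26), but among *Foxp3*+ cells alone -0.19 and 0.054. Of 15 cytokine receptors, 1 was lower in the library labelled dKO, and 3 were higher and 3 lower in the library labelled WT. *Il18r1*, a receptor chain for IL-18, had 55.5 against 115 CPM (-1.05) and 173 against 190 CPM, and 1.11 within clones of the library labelled dKO.

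No gene past the fold was found in the library labelled dKO among the costimulatory receptors (10 tested), the cell cycle (9), the interferon response (6), glycolysis (12), MHC class II (4) and RGS genes (9). Cells with a UMI of the proliferation genes *Mki67* or *Top2a* made up 30.0% (16.6 to 46.5) of *Il10*+ and 19.6% of *Il10*=0 cells in the library labelled WT and 12.4% (10.6 to 14.5) and 10.5% in the library labelled dKO. Of 13 cell cycle genes, 6 were higher in *Il10*+ cells of the library labelled WT, with a median log2 ratio of 0.57. With *Il10*=0 cells weighted to the depth of the *Il10*+ cells, *Top2a* went from 0.93 to 0.55 there and *Mki67* from 0.11 to -0.23, and without doublets *Top2a* had 1.17 and *Mki67* -0.75. The shares of cells were not matched for depth.

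The genes named by rule, those moved the same way in both libraries, were ordered by the smaller of their ratios. Of the 10 highest, 9 are given here, *Cxcl2*, *Klrg1*, *Gzmk*, *Gzmb*, *Ptms*, *Izumo1r*, *Maf*, *Trerf1* and *Ctla4*, and the 10 lowest were *Bcl2*, *Gramd3*, *Itgb1*, *Ccr7*, *Prkcq*, *Bach2*, *Serpinb9*, *Arhgef3*, *Gramd1b* and *Neurl3*. *Trerf1* had a log2 ratio of 0.50 in the library labelled WT, which was -0.20 without doublets and 0.17 without shared barcodes. *Cxcl2*, a chemokine for neutrophils, led with 93.2 against 49.7 CPM and 97.7 against 56.8 CPM, but among cells with *Foxp3* its log2 ratio was -0.39 in the library labelled dKO and -0.25 in the library labelled WT. *Bach2*, a repressor that holds T cells in a resting state, had 69.2 against 100 CPM and 173 against 247 CPM. *Itgb1*, the integrin β1 chain, had log2 ratios of -0.74 and -0.59.

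**Figure D2:**
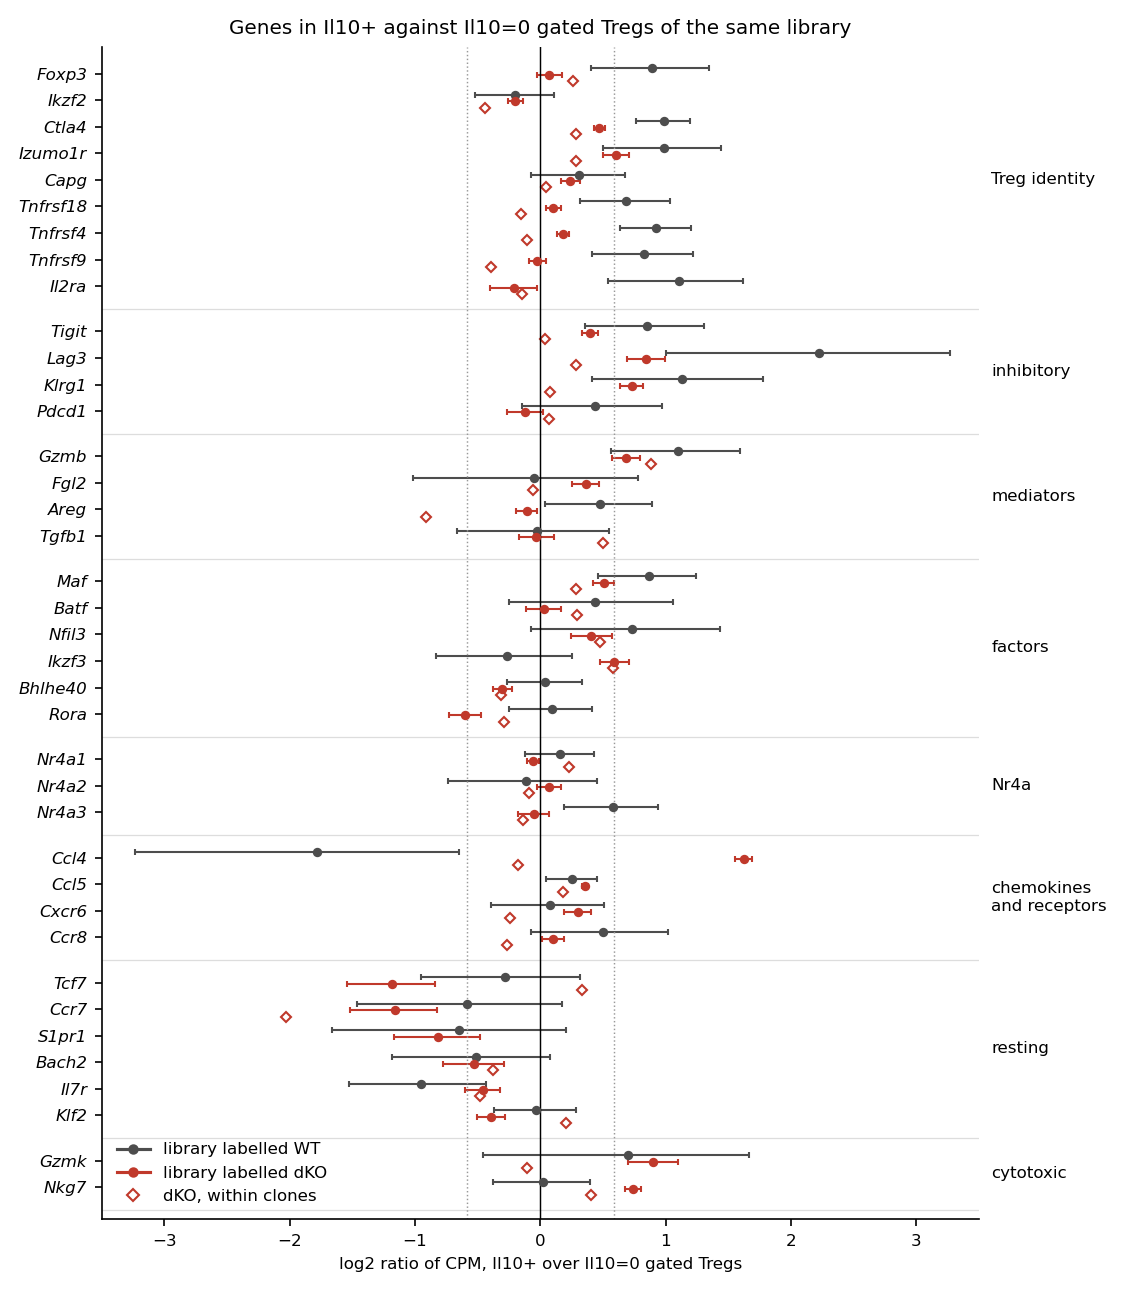
Log2 ratio of CPM, *Il10*+ over *Il10*=0 gated Tregs (horizontal axis), for genes grouped by role in the libraries labelled WT (grey) and dKO (red), with exact 95% intervals for counting error as bars, the ratio within clones of the library labelled dKO as open diamonds and 1.5-fold as dotted lines. *Klrg1* lies to the right in both libraries (1.13 and 0.73), *Ccl4* lies on opposite sides (-1.78 and 1.62), and the bars of the library labelled WT are wide.

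Deeper cells show more genes, so the shares of cells with a UMI were also taken at 1000 UMIs per cell, over 1008 *Il10*+ and 3916 *Il10*=0 cells of the library labelled dKO. *Klrg1* was read in 37.0% (34.0 to 40.1) against 23.0% (21.7 to 24.3), *Ctla4* in 83.9% against 73.9%, *Tigit* in 63.7% against 52.7% and *Maf* in 45.8% against 35.4%. *Tcf7* was read in 2.0% against 5.7% and *Rora* in 19.9% against 27.5%. The direction was as in the CPM for each of these genes. Over 37 and 1053 cells of the library labelled WT, *Ctla4* was read in 59.5% against 39.6%, *Tigit* in 32.4% against 15.8% and *Tcf7* in 2.7% against 17.9%.

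The *Il10*+ cells of the library labelled dKO were also divided by their *Il10* UMIs, which shows the cells just inside the rule (1 UMI, 763 cells) beside those just outside it (0 UMIs, 5128 cells). *Ctla4* had 1949 CPM at 0 UMIs, 2429 at 1, 3012 at 2 and 3333 at 3 or more, and *Prdm1* had 76.7, 94.4, 119 and 145 CPM. Both are higher at each step, although the intervals of neighbouring *Prdm1* levels overlap, as do those of *Ctla4* at 2 and at 3 or more UMIs. *Ccl4* had 421, 800, 1148 and 3314 CPM, and *Tcf7* had 72.4, 37.2, 31.8 and 12.3 CPM, the last from 5 UMIs, with overlapping intervals from 1 UMI on. *Klrg1*, *Maf* and *Tigit* were highest at 2 UMIs (820, 736 and 1217 CPM) and had 594, 621 and 1082 CPM at 3 or more. *Foxp3* was nearly flat, 398, 412, 408 and 456 CPM, and *Ikzf2* went from 1281 to 1025 CPM. Median depth went along with *Il10*, 1377.5, 1505, 1653 and 1982.5 UMIs, and its part in these steps was not tested.

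**Figure D3:**
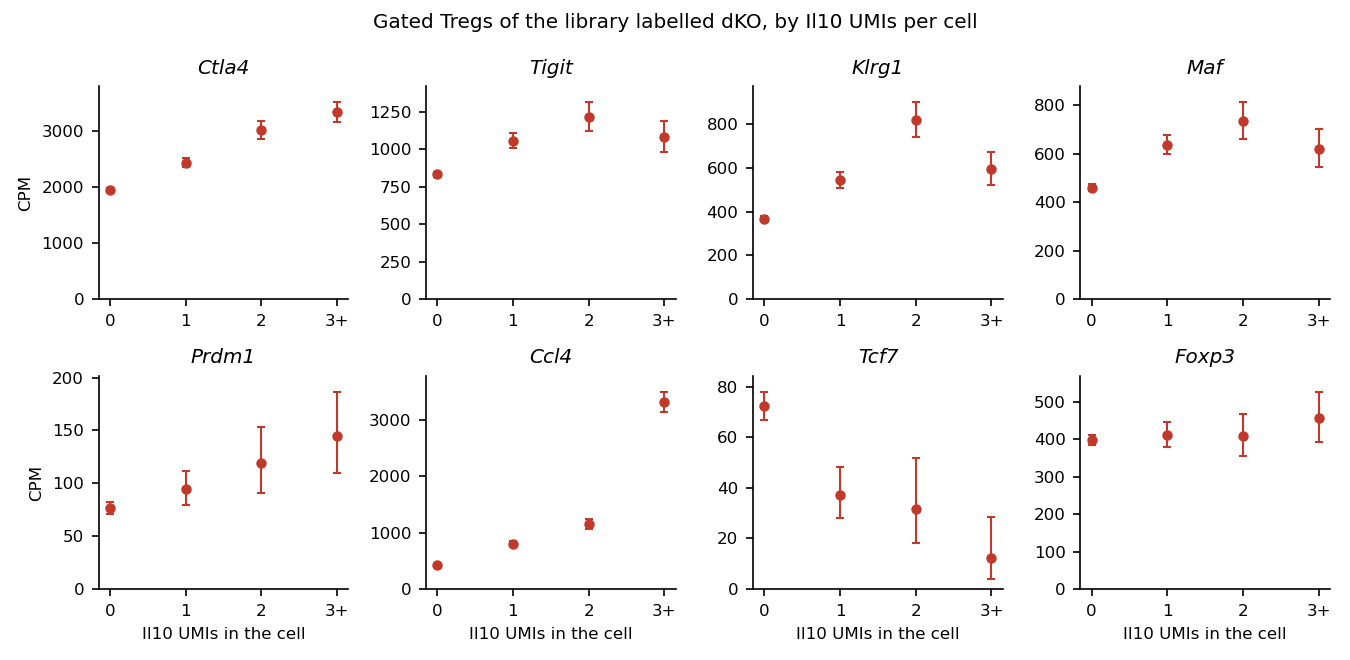
CPM (vertical axes) of genes in gated Tregs of the library labelled dKO with 0, 1, 2 and 3 or more *Il10* UMIs (horizontal axis); bars are exact 95% Poisson intervals for counting error. *Ctla4* goes from 1949 to 3333 CPM and *Tcf7* from 72.4 to 12.3 CPM, while *Foxp3* stays between 398 and 456 CPM.

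The differences were also taken within the *Foxp3* and *Ikzf2* classes of the members. *Ctla4* in the library labelled dKO had 2945 against 2188 CPM in *Il10*+ and *Il10*=0 cells with both genes, 2876 against 2186 CPM with *Foxp3* alone and 2412 against 1727 CPM with *Ikzf2* alone. *Maf* had 617 against 466, 683 against 501 and 688 against 449 CPM. *Klrg1* had 612 against 415, 788 against 489 and 565 against 310 CPM. Each of the 3 genes was higher in *Il10*+ cells of this library in each class, including the cells that entered the gate by *Ikzf2* alone. The library labelled WT had *Ctla4* at 1411 against 1439 CPM with *Foxp3* alone (8 *Il10*+ cells), at 1287 against 534 CPM with *Ikzf2* alone and at 1759 against 1136 CPM with both genes, and *Klrg1* at 216 against 185 CPM with both, the last from 8 UMIs. *Maf* was higher there in each of the 3 classes, at 408 against 274 CPM, 477 against 247 CPM and 433 against 238 CPM in the same order.

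*Il10*+ cells of the libraries were then compared with each other. Of 3439 genes, 470 were higher (13.7%) and 570 lower (16.6%) in the library labelled dKO by the same fold, between 1160 and 40 cells pooled from separate mice, so genotype, library and mice cannot be told apart. TMM scaling moved all ratios by 0.15 on the log2 scale and turned the split around, to 652 higher and 394 lower.

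Inhibitory receptors were among the higher genes of the library labelled dKO. In this list 4 of 7 tested genes were higher and 1 lower, with a median log2 ratio of 0.91 against -0.05 over all genes. *Klrg1* had 158 and 610 CPM (log2 ratio 1.95), *Tigit* 308 and 1096 CPM (1.83), and *Lag3* 67.6 and 220 CPM (1.70). The *Klrg1* ratio was 1.37 in *Foxp3*+ cells alone and 3.87 with each clonotype as 1 cell. *Ctla4* had 1443 and 2703 CPM (0.91). *Fgl2* had 90.2 and 404 CPM (2.16) and *Ccl5*, a chemokine of effector T cells, 1541 and 7201 CPM (2.22). *Foxp3* had 316 and 418 CPM, with an interval that spans 0 (0.41, -0.04 to 0.89). In *Il10*=0 cells the log2 ratios of *Klrg1*, *Tigit*, *Lag3*, *Ctla4*, *Fgl2* and *Ccl5* were 2.35, 2.28, 3.08, 1.42, 1.75 and 2.12. These genes were thus higher in the library labelled dKO with and without *Il10*, and the difference between the ratios was not tested.

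The naming rule put *Gdpd3* (chr7:126766334-126775649), which encodes a lysophospholipase D, first. It had 0 UMIs in the *Il10*+ and *Il10*=0 cells of the library labelled WT and 778 and 668 CPM in those of the library labelled dKO, at least 34.5-fold higher in *Il10*+ cells against a floor of 3 UMIs in the group (22.5 CPM). Over all filtered cells it had 15 UMIs (0.64 CPM) and 15336 UMIs (406 CPM), so the gap spans the whole libraries. Next were *Ccl4* (log2 ratio 4.85, 3.72 to 6.29), *Ccl3* (4.84, 2.35 to 10.14, from 1 UMI in the library labelled WT), *Itgb8*, *Il1r2*, *Metrnl*, *Tent5c* and *Snx9*. *Itgb8* (4.18, 1.70 to 9.49) encodes an integrin chain that activates latent TGF-β, *Il1r2* (4.01, 1.52 to 9.32) the decoy receptor for IL-1 and *Metrnl* (3.86, 1.37 to 9.17) the cytokine meteorin-like, and each of these rests on 1 UMI in the library labelled WT. That is below the floor of 3 UMIs. By the mean of each cell's CPM *Itgb8* had 2.52, *Il1r2* 5.62 and *Metrnl* 2.77, so their rank changes. In *Il10*=0 cells their log2 ratios were 1.44 for *Ccl4*, 0.36 for *Ccl3*, 2.85 for *Itgb8*, 2.06 for *Il1r2* and 0.93 for *Metrnl*. *Ccr3* and *Ccr9*, at 0 in the 40 cells of the library labelled WT, were at least 3.88-fold and 3.21-fold higher against the same floor.

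The lowest ratios belonged to *Cd40lg* (-3.80, -4.38 to -3.21), the CD40 ligand of helper T cells, *Ccr4* (-3.08), a skin and tissue homing receptor, *Xcl1* (-2.99), *Tespa1*, *Aff3*, *Tcf7* (-2.44), *Gpr183* (-2.44) and *Klhl6*. The order changed in other settings. With each clonotype as 1 cell *Ccr4* had -1.04 and *Tcf7* -3.09. In *Foxp3*+ cells alone *Xcl1* had -1.60, *Aff3* -1.23 and *Tcf7* -1.68, whereas *Cd40lg* had -4.06 and *Ccr4* -3.37. In *Il10*=0 cells *Cd40lg* had -2.57, *Ccr4* -1.66, *Xcl1* -2.18 and *Tcf7* -1.54. Of 8 resting T cell genes 6 were lower and none higher, with a median of -1.30. Among effector cytokines 1 of 4 was higher and 3 lower, and *Ifng* had a log2 ratio of -2.27 in *Il10*+ and -2.17 in *Il10*=0 cells. The *Ifng* ratio of *Il10*+ cells was -0.85 in *Foxp3*+ cells alone and -3.26 with each clonotype as 1 cell. Cell cycle genes were lower in 9 of 11 cases, but with cells of the library labelled dKO weighted to the depth of the others, an alternative added after seeing the data, *Mki67* went from -1.19 to -0.16 and *Top2a* from -1.46 to -0.54. Without doublets *Mki67* had -0.23 and *Top2a* -1.58. Interferon response genes were higher in 4 of 5 cases. *Cd74*, the invariant chain of MHC class II, had 2.76, and 1.68 in *Il10*=0 cells. Among the deleted family, *Nr4a3*, the member left intact, was lower in *Il10*+ cells of the library labelled dKO, 481 and 282 CPM (-0.77, -1.14 to -0.38), with -0.14 in *Il10*=0 cells.

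**Figure D4:**
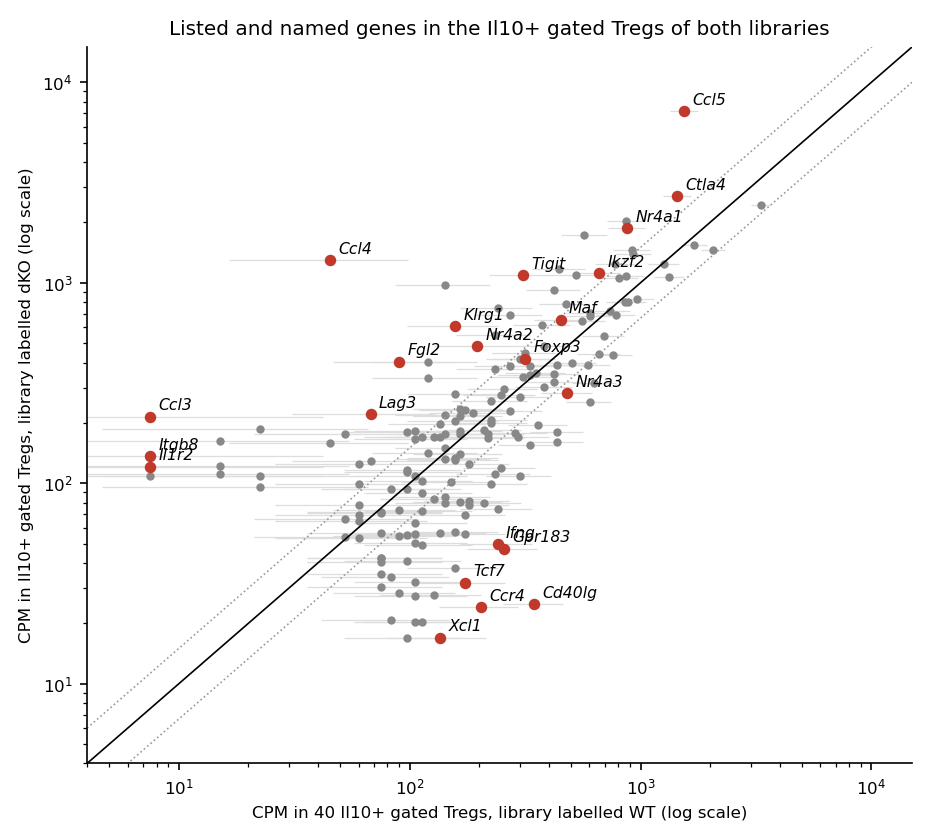
CPM of listed and named genes in *Il10*+ gated Tregs of the library labelled WT (horizontal log axis, 40 cells, light bars are exact 95% Poisson intervals) and of the library labelled dKO (vertical log axis), with genes at 0 in the former left out; the solid line marks equal levels, the dotted lines 1.5-fold, and labelled genes are red. *Ccl4* lies far above the line (45.1 and 1297 CPM) and *Xcl1* far below it (135 and 17.0 CPM).

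A T cell and its progeny share a rearranged receptor, so clones were followed by the nucleotides of the CDR3, the part of each receptor chain that is made by joining gene segments. Both chains were read in 13 of 40 and 239 of 1160 members. Those of the library labelled dKO came from 133 clones, of which 113 had 1 *Il10*+ cell and 20 had at least 2. The largest held 56 of them (23.4%, 18.2 to 29.3) and 11.2% of the *Il10*=0 cells with both chains. The 13 cells of the library labelled WT came from 12 clones. No clonotype was found in both libraries.

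The receptors of the clones that the *Il10* shares turn on are shown as the CDR3 of the TRB or TRA chain, 5′ to 3′, as in the deposited receptor tables, with the first and last codon in capitals. The largest clone is shown with both chains, followed by the clones with the highest shares, a clone with a low share, and the clone with the highest *Ccl4* level.
TRBV13-1/TRBJ2-4, TRB: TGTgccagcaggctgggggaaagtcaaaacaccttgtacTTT
TRBV13-1/TRBJ2-4, TRA (TRAV6-1/TRAJ30): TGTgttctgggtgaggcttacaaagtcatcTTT
TRBV13-1/TRBJ2-5, TRB: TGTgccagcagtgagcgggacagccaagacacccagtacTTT
TRBV13-1/TRBJ2-5, TRA most often read with it (TRAV5D-4/TRAJ7): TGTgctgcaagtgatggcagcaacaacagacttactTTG
TRBV31/TRBJ1-3, TRB: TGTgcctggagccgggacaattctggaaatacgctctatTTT
TRBV1/TRBJ2-1, TRB: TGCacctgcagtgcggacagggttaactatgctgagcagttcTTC
TRBV19/TRBJ2-7, TRB: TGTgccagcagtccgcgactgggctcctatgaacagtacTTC
The first TRB chains share TRBV13-1 and differ in the joined middle and in TRBJ. Of the 65 gated cells with the TRBV13-1/TRBJ2-5 chain, a TRA was read in 19 and the one shown in 15 of these, and of the 272 with the TRBV13-1/TRBJ2-4 chain all 161 with a TRA had the one shown.

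Clones of gated Tregs in the library labelled dKO differed in their share of *Il10*+ cells. Called by TRB alone, the TRBV13-1/TRBJ2-4 clone had 86 *Il10*+ of 272 cells (31.6%, 26.1 to 37.5) and the TRBV13-1/TRBJ2-5 clone 39 of 65 (60.0%, 47.1 to 72.0). The TRBV31/TRBJ1-3 clone had 12 of 26 (46.2%, 26.6 to 66.6). The TRBV1/TRBJ2-1 clone, close in size to the TRBV13-1/TRBJ2-5 clone, had 7 of 60 (11.7%, 4.82 to 22.6). Its interval overlaps with neither that of TRBV13-1/TRBJ2-4 nor that of TRBV13-1/TRBJ2-5. Depth differed, with medians of 2023 UMIs in the TRBV13-1/TRBJ2-5 clone and 1519 in the TRBV1/TRBJ2-1 clone. At 1000 UMIs per cell the shares were 23.9% (18.4 to 30.3) of 213 cells for TRBV13-1/TRBJ2-4, 39.3% (27.1 to 52.7) of 61 for TRBV13-1/TRBJ2-5 40.0% (19.1 to 63.9) of 20 for TRBV31/TRBJ1-3 and 5.6% (1.2 to 15.4) of 54 for TRBV1/TRBJ2-1. The order of the TRBV31/TRBJ1-3 and TRBV13-1/TRBJ2-5 clones thus turns with depth, within overlapping intervals, and called by both chains they had 9 of 16 (56.2%) and 8 of 15 cells (53.3%). The only clone of 10 or more gated cells in the library labelled WT had 0 of 11 cells.

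Clones of several cells that held *Il10*+ cells mostly held *Il10*=0 cells too. Of 99 clones with at least 2 gated cells in the library labelled dKO, 52 had an *Il10*+ cell, 50 of these were mixed and 2 were *Il10*+ throughout. *Il10*+ cells were in such clones in 66.1% of cases, *Il10*=0 cells in 46.7%. A cell with an *Il10*+ sister cell was itself *Il10*+ in 28.1% (126 of 449, 24.0 to 32.5) of cases, and a cell with sisters that were all *Il10*=0 in 21.8% (32 of 147, 15.4 to 29.3). The intervals overlap, and without the largest clone the first share was 24.3% (19.5 to 29.7). In the library labelled WT the first share was 66.7% (2 of 3, 9.43 to 99.2) and the second 1.32% (1 of 76, 0.0333 to 7.11). Those intervals do not overlap, but the first share rests on 3 cells. Its 2 *Il10*+ cells are of 1 clone and each is the sister of the other, so they are not independent.

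The clones differed in other genes as well. *Klrg1* had 1540 CPM in the TRBV13-1/TRBJ2-4 clone, 284 CPM in the TRBV13-1/TRBJ2-5 clone, 58 CPM in the TRBV1/TRBJ2-1 clone and 792 CPM in the TRBV31/TRBJ1-3 clone, so the order of its levels was not that of the *Il10* shares. The TRBV31/TRBJ1-3 clone had *Ctla4* at 4229 CPM and *Maf* at 1125 CPM. The TRBV19/TRBJ2-7 clone had *Ccl4* at 8850 CPM, with *Il10* in 6 of 28 cells (21.4%) and *Foxp3* in 7.14% of cells. It entered the gate mainly by *Ikzf2*. A TRA was read in 23 of these 28 cells and the same TRA in 14, so cells with this TRB need not be 1 clone.

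**Figure D5:**
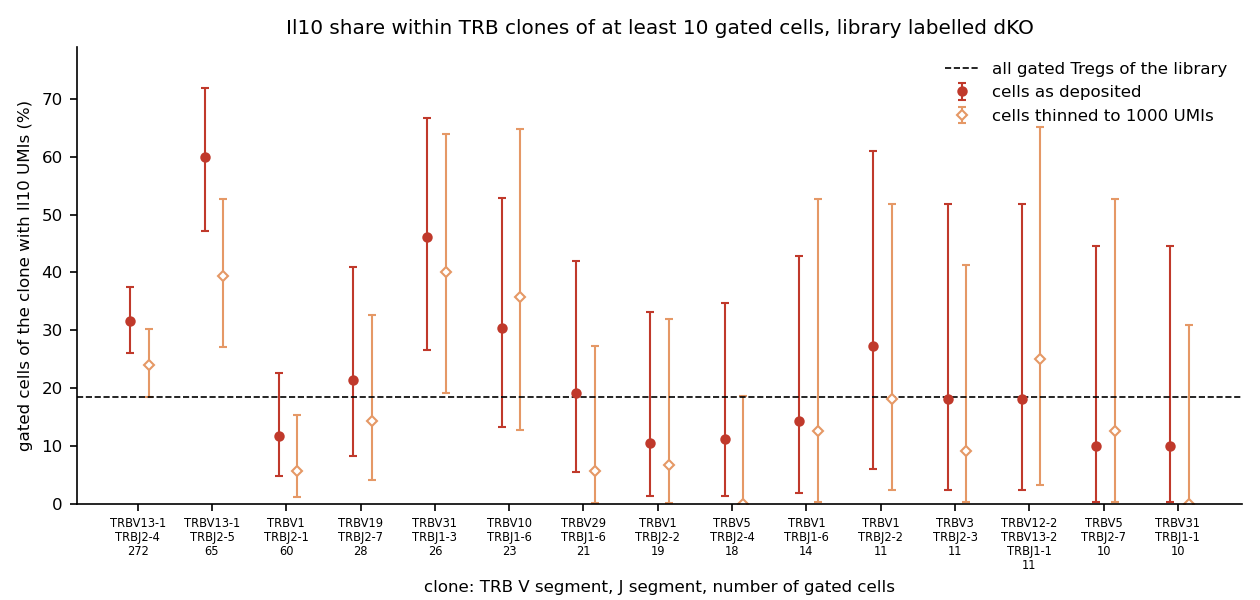
Percent of gated Tregs with an *Il10* UMI (vertical axis) in each TRB clone of at least 10 gated cells of the library labelled dKO, ordered by size (horizontal axis), as read (filled) and thinned to 1000 UMIs per cell (open), with exact 95% intervals for counting error as bars and the share of the whole library as a dashed line. The TRBV13-1/TRBJ2-5 clone stands at 60.0% and the TRBV1/TRBJ2-1 clone at 11.7%, against 18.4% in the library.

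Use of V segments was counted over single chains. TRBV13-1 was used by 39.5% (138 of 349, 34.4 to 44.9) of *Il10*+ and 20.9% (319 of 1524) of *Il10*=0 cells with a TRB chain in the library labelled dKO, and by 15.0% (3 of 20) and 6.3% in the library labelled WT. Without the TRBV13-1/TRBJ2-4 and TRBV13-1/TRBJ2-5 clones, an alternative added after seeing the data, the shares in the library labelled dKO were 5.80% (13 of 224, 3.13 to 9.72) and 8.16% (107 of 1312, 6.73 to 9.77), so the direction turns and rests on these 2 clones. TRAV6-1, the V segment of the TRA shown for the TRBV13-1/TRBJ2-4 clone, was used by 27.5% (94 of 342) of *Il10*+ cells with a TRA chain in that library. Of its *Il10*=0 cells with a TRA chain, 12.0% (154 of 1279) used it. Cells of a clone share their receptor, so these counts are not independent.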

How the data were processed

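RNA and T cell receptors of sorted hepatic CD4+ T cells were read with a 5′ droplet kit, 1 library for a genotype and 2 mice pooled in each. The authors deposited raw UMI counts per gene and cell, made with Cell Ranger 7.0.1 on mm10 per the file headers and the submitters' processing notes and limited to called cells (10602 and 17645), without normalization. The deposited receptor tables list productive TRA and TRB contigs with their CDR3. The bulk libraries of the study were not used here.

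Cells were kept above 200 genes and below 5% mitochondrial counts. The counts of a gene were added up within a group of cells and divided by the group's total (CPM), and genes with a mean of at least 50 CPM over the groups compared were taken. A gene was counted at 1.5-fold, and no test was run, since a genotype has 1 library. A group total of 133048 UMIs, the smallest, allows up to 22.5 CPM for a gene at 0. Members and gene lists were chosen with earlier results of these data known. Genes were named as the markers of the cells, as members of these lists, as the 10 genes at each end of the *Il10*+ over *Il10*=0 ratio with the same sign in both libraries, and as the 8 at each end of the dKO over WT ratio. A few of the genes so named are not reported here. Of 32285 genes in the tables, 32158 were found in GENCODE M21 (GRCm38), the source of the positions.

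Scrublet with its automatic threshold called 0 doublets in either library and so did not work. Doublets were then taken as the top of its score, 0.8 percent for every 1000 cells, plus any cell with 2 or more TRB chains (999 and 2486 cells in all), and were kept. Clonotypes are pairs of TRA and TRB CDR3 nucleotides, each from the chain's contig of highest UMI number. Alternatives were other gates, thinning to 1000 or 2000 UMIs, TMM factors (edgeR 4.0.16 in R 4.3.3), weighting by depth or clone, means of each cell's CPM and removal of doublets. Restriction to *Foxp3*+ cells, removal of shared barcodes or of any cell with a chain of the largest clone, and depth weights between libraries were added after seeing the data. The work was done in Python 3.11.15 (scanpy 1.11.5, scipy 1.17.1, matplotlib 3.10.9, pandas 2.3.3, numpy 2.4.6) with seed 1. The *Il10*+ over *Il10*=0 ratio with its interval, and the thinning, were tested on simulated Poisson counts. For the ratio these were group totals without spread between cells, so the intervals were not tested for such spread.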

Additional observations from a re-analysis of the deposited data

Results flagged for a closer look

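*Ccl4* differed between the libraries in its relation to *Il10*. Its log2 ratio of *Il10*+ over *Il10*=0 gated Tregs was -1.78 (-3.24 to -0.65) in the library labelled WT and 1.62 (1.55 to 1.69) in the library labelled dKO, on opposite sides of 0. The first value rests on 6 UMIs in 3 of 40 cells, and 58 of 1160 cells hold 80.8% of the UMIs behind the second. The shares of cells with *Ccl4* in the library labelled WT were 7.5% and 6.67%, and within clones of the library labelled dKO the ratio was -0.18, so the opposite sign does not hold there. The difference was not tested, since a genotype has 1 library.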

How the results depend on the processing

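No paired analysis was possible because each genotype has 1 library and no replicate number is shared within it. The share of *Il10*+ cells stayed higher in the library labelled dKO under each alternative of gate, depth, clone and doublets, with ratios between 3.40 and 9.81 (the highest with the gate, too, read on cells thinned to 2000 UMIs), and in cells with both *Foxp3* and *Ikzf2*, where the ratio was 2.95. It moved by more than its counting interval as follows. For the library labelled WT it was 1.65% with cells thinned to 1000 UMIs, 2.14% at 2000 UMIs, 6.13% with *Foxp3* alone as the gate, 5.04% with *Foxp3* and *Ikzf2* summing to at least 2 UMIs and 0.646% with at least 2 *Il10* UMIs. For the library labelled dKO it was 13.4%, 17.3%, 20.9% (*Foxp3* alone) and 6.31% (at least 2 *Il10* UMIs), and 15.0% with 1 cell per clonotype. With the gate, too, read on thinned cells, the library labelled WT had 2.18% at 1000 UMIs and 1.80% at 2000 UMIs. The library labelled dKO then had 14.4% at 1000 UMIs.

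Counts of genes past 1.5-fold moved too. Within the library labelled WT, TMM scaling gave 244 higher (382 in the report) and 426 lower (283), the mean of each cell's CPM 491 and 436, and *Foxp3*+ cells alone 564 and 581. Within the library labelled dKO, weighting within clones gave 204 higher (23) and 193 lower (18) from 154 and 323 cells (127 and 143 in these cells without the weights, added after the data were seen), the mean of each cell's CPM 30 lower and removal of doublets 36 lower. Between libraries, each clonotype taken as 1 cell gave 842 higher (470) and 683 lower (570). Clones with an *Il10*+ cell numbered 22 and 239 by the deposited clonotype number in place of 12 and 133.

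Ratios of single genes were recomputed 565 times in the library labelled WT, 780 times in the library labelled dKO and 569 times between libraries. These include genes inside the fold, for which a change of sign was not counted. Of those past the fold in the main values, 5, 10 and 2 changed sign in the same order. A further 28, 174 and 68 lay outside the interval of the main value. In the library labelled WT *Cxcl2* became -0.25 in *Foxp3*+ cells and -0.46 without shared barcodes, *Bcl2* 0.054 in *Foxp3*+ cells, and by the mean of each cell's CPM *Gzmk* became -0.011 and *Cd74* 0.031. In the library labelled dKO *Cxcl2* became -0.39 in *Foxp3*+ cells, and within clones *Tcf7* became 0.33, *Ccl4* -0.18, *Cxcl2* -0.36, *Gzmk* -0.10 and *Il18r1* 1.11 (without the weights *Ccl4* -0.42, *Cxcl2* -0.62, *Gzmk* -0.26 and *Il18r1* 0.50). With each clonotype as 1 cell, the ratio between libraries became 1.53 for *Il2ra* and 1.76 for *Mki67*. The cause was not tested. The 40 cells of the library labelled WT limit what can be read from it: 3 UMIs in them are 22.5 CPM.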

Other observations

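Some genes were read in 1 library only, over all filtered cells. The neutrophil granule genes *Camp* and *Ngp* had 0 UMIs in the library labelled WT and 44.8 and 75.7 CPM in the library labelled dKO, while *Igkv4-63*, an immunoglobulin light chain segment, had 59.2 CPM in the library labelled WT and 0 UMIs in the other. Among the 1160 *Il10*+ cells of the library labelled dKO the summed level of 5 neutrophil markers was 23.6 CPM.

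*Tnfsf8*, the CD30 ligand, had a log2 ratio of -1.0 in *Il10*+ over *Il10*=0 cells of the library labelled dKO and -0.12 in the library labelled WT. *Areg*, the growth factor amphiregulin of tissue-repair Tregs, had, in the library labelled dKO, 615 against 663 CPM, and had 376 against 270 CPM in the library labelled WT, where its log2 ratio of 0.48 became -0.43 among *Foxp3*+ cells alone. Within clones its log2 ratio in the library labelled dKO was -0.91.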
